A study of Homo sapiens with 14 samples.

Results

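The EGR and NR4A transcription factors, the NAB corepressors that bind EGR proteins, and the serum response factor SRF were followed in U2OS cells, a human osteosarcoma line, after activation of the transcription factor E2F1. Every probe set that the array annotation paired with EGR1, EGR2, EGR3, EGR4, NAB1, NAB2, NR4A1, NR4A2, NR4A3 or SRF was taken, which gave 21 of the 22215 probe sets that were not array controls. They covered 9 of the 10 genes, of 11963 genes named on the array, and EGR2 was not analysed here. Each of the 21 named 1 gene alone. All cells stably carried ER-E2F1, a fusion of E2F1 to a hormone-binding domain that 4-hydroxytamoxifen (OHT) activates, and there was no OHT-treated control without the fusion, so an effect of OHT alone cannot be told apart from that of E2F1. Cells had been infected with 1 of 3 hairpin lentiviruses, changed to serum-free medium after 24 h, starved for 24 h and then left for 6 h with 20 nM OHT or without it. The hairpin viruses shFOXO33 and shFOXO707 were each directed at both FOXO1 and FOXO3, forkhead transcription factors, and sh-scr carried a scrambled hairpin. The groups, named as in the sample titles, were shFOXO33_OHT (2 arrays), shFOXO707_OHT (2), sh-scr_OHT (4), shFOXO33_con (1), shFOXO707_con (1) and sh-scr_con (4), where con means without OHT. "Knockdown" below means the arrays of both FOXO hairpins together, 4 with OHT and 2 without. Nothing in the labels says whether arrays of a group came from separate cultures, so p-values measure the spread between these arrays, which may be technical.

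Immediate early genes are transcribed within minutes of a growth factor or stress signal, without new protein synthesis. EGR1, EGR3 and EGR4 encode zinc finger factors that bind GC-rich sites, and NAB1 and NAB2 encode corepressors that bind EGR1 and restrain it; NAB2 is itself described as an EGR target. NR4A1 (NUR77), NR4A2 (NURR1) and NR4A3 (NOR1) encode orphan nuclear receptors whose amount in the cell, rather than a ligand, sets their activity. SRF binds the CArG box of serum-induced genes, EGR1 among them, and CREB binds the cyclic AMP response element (CRE) found in NR4A promoters. Serum starvation, as used here, is the usual way to hold these genes low before a stimulus.

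The arrays gave 1 MAS5 signal per probe set, a linear intensity scaled to a common trimmed mean. The median signal of an array was 115 to 120 with OHT and 137 to 143 without. The 14 pairs of arrays of the same group correlated at 0.985 to 0.987 on the log2 scale over all probe sets, and the 77 other pairs at 0.927 to 0.980, with 0 identical columns. The 3'/5' ratio of the ACTB control probes, a sign of RNA integrity, was 1.95 to 2.04 in shFOXO707_OHT, 1.60 to 1.63 in shFOXO33_OHT and 1.60 to 1.74 in sh-scr_OHT, against 1.49 to 1.64 without OHT. With OHT, the targeted FOXO1 averaged 199 ± 48.5 in knockdown cells and 501 ± 32.7 in sh-scr_OHT (SD, n = 4 each). FOXO3 averaged 558 ± 293 in knockdown cells and 1793 ± 45.2 in sh-scr_OHT (SD, n = 4 each), and its mean was 307 with shFOXO33 and 810 with shFOXO707. Without OHT, FOXO1 averaged 44.2 in knockdown cells (n = 2) and 103 in sh-scr_con (n = 4). FOXO3 averaged 206 and 449 in the same groups. For both genes the knockdown mean with OHT lay above the mean of sh-scr_con. Of the mesenchymal and osteoblast markers, VIM, COL1A1, SPARC, COL1A2 and ALPL lay above the 40th percentile of mean signal, while the osteoblast markers RUNX2 (at most 46.6) and IBSP (at most 35.2) lay below it. The summed signal of these 7 markers was 21498 to 22447 in shFOXO33_OHT, 27048 to 29553 in shFOXO707_OHT and 27785 to 30095 in sh-scr_OHT. It was 25664 to 31766 in knockdown cells without OHT and 33309 to 34563 in sh-scr_con. The part of this sum in the results below was not tested. Of the other types' markers, 0 of 3 blood, 1 of 4 epithelial (EPCAM) and 1 of 4 neural (NEFL) genes lay above it. The summed neural signal was 4537 to 4721 in sh-scr_OHT and 2735 to 3057 in sh-scr_con. It was 3996 to 4000 in shFOXO33_OHT and 4580 to 4656 in shFOXO707_OHT. The single arrays without OHT had 2482 in shFOXO33_con and 3273 in shFOXO707_con. The summed epithelial signal was 437 to 440 in knockdown cells without OHT and 282 to 312 in sh-scr_con. With OHT it was 371 to 429 in shFOXO33_OHT, 498 to 503 in shFOXO707_OHT and 290 to 427 in sh-scr_OHT. The part of the neural and epithelial sums in the results was not tested either.

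Promoter windows from RefSeq (GRCh38.p14, 250 bases before the transcription start to 50 after it) were read for the genes whose response to OHT or to knockdown is described below, to show which of the sites named above they hold. Entries were used for 7 of the 9 measured genes, with 11 windows: 3 for NAB1, 2 each for NR4A1 and SRF, and 1 each for the others. NR4A2 had no entry and is not among them. Motifs were searched on both strands: the CArG box, the CRE TGACGTCA and its core TGACG, the EGR sites GCGTGGGCG and GCGGGGGCG, the NR4A site AAAGGTCA, the E2F sites TTTCGCGC, TTTGGCGC, TTTCCCGC and TTTGGCGG, and the forkhead sites TGTTTAC and TGTTTGC. Capitals mark every match, and a full CRE would also count as a core. Positions are counted from the transcription start at 1. EGR1 and SRF are shown for their CArG boxes, EGR4 and NR4A3 for CRE cores, and NAB1 for EGR sites.
EGR1 (chr5:138465229-138465528, plus strand): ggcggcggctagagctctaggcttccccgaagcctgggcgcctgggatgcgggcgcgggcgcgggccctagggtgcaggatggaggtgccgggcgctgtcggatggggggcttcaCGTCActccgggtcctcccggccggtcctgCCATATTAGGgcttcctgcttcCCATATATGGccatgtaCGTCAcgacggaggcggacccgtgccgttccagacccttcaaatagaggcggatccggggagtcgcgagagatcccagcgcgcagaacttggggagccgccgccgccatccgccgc
EGR4 (chr2:73293499-73293798, minus strand): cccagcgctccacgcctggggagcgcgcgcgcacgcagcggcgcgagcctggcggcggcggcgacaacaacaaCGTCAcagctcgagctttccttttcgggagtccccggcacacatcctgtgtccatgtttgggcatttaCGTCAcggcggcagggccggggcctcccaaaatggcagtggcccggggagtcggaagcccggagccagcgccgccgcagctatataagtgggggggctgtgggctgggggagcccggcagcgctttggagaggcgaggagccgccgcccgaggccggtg
NAB1 (chr2:190648645-190648944, plus strand): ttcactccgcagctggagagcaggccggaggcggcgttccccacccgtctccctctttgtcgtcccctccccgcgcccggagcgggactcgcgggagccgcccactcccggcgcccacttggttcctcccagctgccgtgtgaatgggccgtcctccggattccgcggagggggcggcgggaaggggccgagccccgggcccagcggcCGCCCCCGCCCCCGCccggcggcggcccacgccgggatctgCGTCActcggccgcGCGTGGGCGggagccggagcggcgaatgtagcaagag
NR4A3 (chr9:99821635-99821934, plus strand): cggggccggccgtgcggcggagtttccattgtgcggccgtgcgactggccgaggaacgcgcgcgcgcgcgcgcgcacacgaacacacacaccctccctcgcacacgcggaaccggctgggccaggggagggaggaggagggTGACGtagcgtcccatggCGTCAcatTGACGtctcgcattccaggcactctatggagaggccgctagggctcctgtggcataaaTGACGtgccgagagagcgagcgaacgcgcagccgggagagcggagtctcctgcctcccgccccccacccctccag
SRF (chr6:43171019-43171318, plus strand): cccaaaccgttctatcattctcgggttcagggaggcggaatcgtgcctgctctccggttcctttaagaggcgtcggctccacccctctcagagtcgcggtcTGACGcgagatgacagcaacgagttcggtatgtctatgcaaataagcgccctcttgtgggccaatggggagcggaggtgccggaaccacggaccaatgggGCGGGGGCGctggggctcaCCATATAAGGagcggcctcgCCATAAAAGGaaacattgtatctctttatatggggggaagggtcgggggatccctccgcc

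The EGR1 window held 2 CArG boxes, at -105 to -96 and -83 to -74, and 2 CRE cores. The upstream SRF window, shown above, also held 2 CArG boxes, at -30 to -21 and -10 to -1, with 1 EGR site and 1 CRE core. A CArG box was present in 1.29% of the 35116 promoter windows of the table. The NR4A3 window held 4 CRE cores and the EGR4 window 2, while the core was present in 24.6% of all windows and the full CRE in 1.85%. The NAB1 window shown held 3 EGR sites, 2 of which overlap, and a second NAB1 window that overlaps it holds the same 3, while the third held none; the NAB2 window held 1, where 5.77% of all windows held at least 1. The second SRF window matched none of the motifs, and neither did the 2 NR4A1 windows, CRE cores included. Only the listed starts of these genes were read, and any other start was not searched. None of the 11 windows of these genes matched the full CRE, the NR4A site (1.22% of all windows), the E2F sites (3.35%) or the forkhead sites (7.17%). A match is a run of letters in the window, and these counts say nothing of binding.

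With OHT, scrambled cells had far more NR4A2, NR4A3 and EGR4 RNA, more EGR1 and NAB1, and less SRF. They also had more NR4A1 by its brightest probe set. Differences were tested with limma on log2(signal + 16) over all probe sets and 14 arrays, and calls needed an adjusted p (Benjamini-Hochberg) below 0.05. Of the 21 probe sets, 16 rose, 2 fell and 3 were not called, with a median change of 1.12 log2. In the same comparison 45.4% of all probe sets were called, 16.2% higher and 29.2% lower, and the median change was -0.14. Counted by the probe set with the highest mean, 7 of the 9 genes rose, SRF fell and NAB2 was not called. In RNA from whole cultures, a change in the number of expressing cells and a change in RNA per cell cannot be told apart.

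NR4A2, the orphan receptor best known from dopamine neurons, had the largest changes of the 21. Its probe set 204622_x_at gave signals of 1195, 1266, 1185 and 1164 in sh-scr_OHT, against 59.5, 65.2, 72.0 and 69.5 in sh-scr_con. The 4 OHT arrays lay within a narrow band, all above the control arrays, and the ratio of means was 18.1. The change was 3.89 ± 0.10 log2 (SE; limma adjusted p = 1.14e-12). The probe sets 216248_s_at and 204621_s_at rose by 4.33 and 3.99 log2. Every array without OHT lay below 79.1, the signal at the 40th percentile, on all probe sets of NR4A2, NR4A3 and EGR4. With no detection calls such signals may be background, so ratios to them are ratios of measured signals and not exact folds of RNA.

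NR4A3 and NR4A1, the other receptors of the family, rose less. For NR4A3, 209959_at read 382, 315, 329 and 342 in sh-scr_OHT, against 52.6, 35.2, 65.8 and 17.1 in sh-scr_con, without overlap. That was 8.01-fold between the means and 2.69 ± 0.22 log2 (SE; limma adjusted p = 1.38e-07). Its probe set 207978_s_at rose by 2.85 log2, and 216979_at, dim on all arrays at 18.3 to 65.5, rose by 0.64 log2 although its groups overlapped. For NR4A1, 202340_x_at read 456, 363, 431 and 429 in sh-scr_OHT, against 102, 103, 104 and 79.8 in sh-scr_con. The groups were far apart, at 4.32-fold or 1.95 ± 0.12 log2 (SE; limma adjusted p = 6.80e-09). The other NR4A1 probe sets did not follow it to that extent, and 211143_x_at rose by 0.53 log2. The third, 210226_at, which was below the 40th percentile, changed by -0.45 log2 without a call (adjusted p = 0.109). Its groups did not overlap, at 45.8 to 79.3 in sh-scr_OHT and 80.5 to 111 in sh-scr_con. It was called lower under 2 of 21 alternatives, both using the scrambled arrays alone. The rising NR4A1 probe sets are both of the _x_at type, whose probes can also match other transcripts.

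EGR4 had the largest change among the EGR genes. Its probe set 207768_at read 448, 407, 387 and 364 in sh-scr_OHT, against 28.2, 30.7, 31.1 and 36.5 in sh-scr_con. Without OHT every scrambled array was near the dim end of the table, and the ratio of means was 12.7. The change was 3.13 ± 0.30 log2 (SE; limma adjusted p = 6.04e-07), and the dimmer 207767_s_at rose by 1.73 log2. EGR1, the founding member of the family, already had a bright signal without OHT: 201694_s_at read 5496, 5938, 5959 and 5083 in sh-scr_OHT, against 2588, 2413, 2465 and 3059 in sh-scr_con. No array of one group reached the other, at 2.14-fold or 1.09 ± 0.10 log2 (SE; limma adjusted p = 6.94e-07), and 201693_s_at rose by 0.87 log2. EGR3, with 1 dim probe set, read 65.2, 55.7, 51.5 and 52.0 in sh-scr_OHT, against 43.4, 32.9, 19.2 and 9.56 in sh-scr_con, a rise of 0.84 ± 0.22 log2 (SE; limma adjusted p = 0.0060) at signals below the 40th percentile.

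The corepressors of EGR1 differed from each other. All 3 probe sets of NAB1 rose, by 1.57, 1.12 and 1.71 log2. The brightest, 209272_at, read 1279, 1431, 1321 and 1490 in sh-scr_OHT, against 515, 418, 496 and 393 in sh-scr_con, and no OHT array came near any control array. NAB2 was not called: 212803_at read 394, 398, 433 and 349 in sh-scr_OHT, against 363, 340, 372 and 343 in sh-scr_con, and the groups overlapped. Its change was 0.14 log2 with a 95% interval from -0.20 to 0.48 (limma adjusted p = 0.521), and that of 216017_s_at was 0.03.

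SRF fell. Its probe set 202401_s_at read 99.2, 101, 109 and 135 in sh-scr_OHT, against 228, 242, 231 and 226 in sh-scr_con, with no overlap. The change was -0.97 ± 0.15 log2 (SE; limma adjusted p = 7.78e-05), a ratio of means of 0.479. The dimmer 202400_s_at fell by 0.63 log2 (adjusted p = 0.0276), a call that was lost after median centring and quantile normalization of the arrays and without sh-scr_con replicate 1, 2 or 3 or sh-scr_OHT replicate 2, with adjusted p up to 0.156. Because the OHT arrays had lower medians, centring each array on its median moved the median change of all probe sets to 0.09 log2 and the share of calls that were higher to 57.0%, against 35.7% on the deposited scale; 202401_s_at of SRF stayed lower on both.

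**Figure D1:**
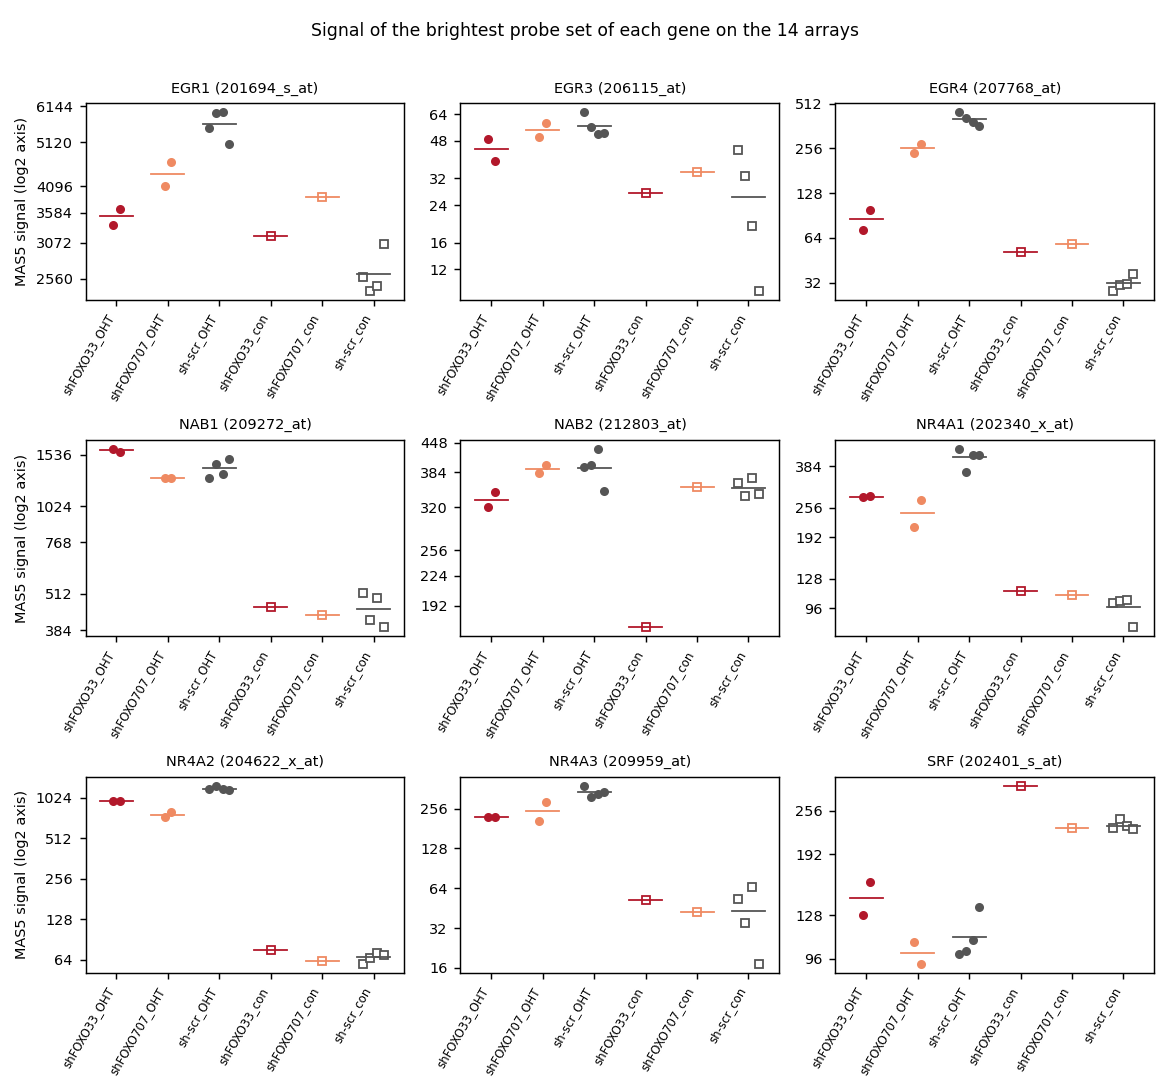
MAS5 signal (log2 axis) of the probe set with the highest mean of each of the 9 genes, 1 point per array, for the 6 groups; horizontal lines are group means, filled circles are arrays with OHT and open squares arrays without. EGR1, EGR4 and the NR4A genes are highest in sh-scr_OHT (NR4A2 at 1164 to 1266), and SRF is lower with OHT (99.2 to 135 in sh-scr_OHT against 226 to 242 in sh-scr_con).

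In knockdown cells OHT still raised the NR4A receptors, NAB1 and EGR4, while EGR1 was not called. Of the 21 probe sets, 10 rose, 2 fell and 9 were not called, with a median of 0.51 log2. Across all probe sets 33.8% were called, 12.4% higher and 21.4% lower, with a median of -0.14. By the probe set with the highest mean, 5 genes rose, SRF fell, and EGR1, EGR3 and NAB2 were not called. The arrays without OHT here were 2, 1 per hairpin. After median centring, 60.4% of all calls were higher, against 36.7% on the deposited scale.

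EGR1 201694_s_at read 3372 and 3656 in shFOXO33_OHT and 4108 and 4629 in shFOXO707_OHT, against 3181 in shFOXO33_con and 3886 in shFOXO707_con. Within each hairpin the OHT arrays lay above the single array without OHT by a small margin, 1.11-fold and 1.12-fold in means. The pooled change was 0.15 log2 with a 95% interval from -0.12 to 0.43 (limma adjusted p = 0.410), and that of 201693_s_at was -0.05 (adjusted p = 0.776). After median centring, 201694_s_at was called higher, by 0.38 log2.

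For EGR1 the difference between the responses was itself tested, as the knockdown cells' change with OHT minus the scrambled cells' change. It was -0.94 ± 0.17 log2 for 201694_s_at and -0.92 ± 0.14 log2 for 201693_s_at (SE; limma adjusted p = 0.0489 and 0.0344). These 2 were the only calls among the 21 probe sets, where 27 of all 22215 probe sets, or 0.122%, were called, 0.0405% higher and 0.081% lower. Both calls are near the threshold: that of 201694_s_at was kept only without shFOXO33_con or without shFOXO707_OHT replicate 2, was lost without any other single array (adjusted p up to 0.137), and was lost with pseudocount 64, under both other scalings, with no variance trend and with hairpin arrays averaged (adjusted p up to 0.163). That of 201693_s_at was lost without 10 of the 14 arrays (adjusted p up to 0.0842; it was kept without sh-scr_con replicate 4, sh-scr_OHT replicate 2, shFOXO33_con or shFOXO707_OHT replicate 2) and with no variance trend or averaged hairpins, while the difference stayed between -0.98 and -0.85 log2.

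Among the others, EGR4 207768_at and NR4A1 202340_x_at had differences of -1.91 ± 0.47 and -0.82 ± 0.19 log2 (SE; limma adjusted p = 0.186 and 0.160), which were not called. For EGR4 207768_at, OHT gave 72.2 and 98.5 in shFOXO33_OHT against 51.2 in shFOXO33_con, and 237 and 275 in shFOXO707_OHT against 58.3 in shFOXO707_con. The hairpins stood apart, at 1.67-fold and 4.40-fold, and the pooled rise of 1.23 ± 0.36 log2 (SE; limma adjusted p = 0.0170) was no longer called without shFOXO33_con (0.0925) or shFOXO707_con (0.063). NR4A2 204622_x_at read 964 and 964 in shFOXO33_OHT against 75.4 in shFOXO33_con, and 738 and 800 in shFOXO707_OHT against 62.7 in shFOXO707_con. The arrays with OHT were far above the single arrays without it, with ratios of measured signals of 12.8 for shFOXO33 and 12.3 for shFOXO707 (8.96 and 13.4 on 204621_s_at), and the pooled rise was 3.37 ± 0.12 log2 (SE; limma adjusted p = 8.87e-11).

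NR4A3 209959_at rose by 1.97 log2 and NR4A1 202340_x_at by 1.13 log2 in knockdown cells (limma adjusted p = 4.70e-05 and 2.98e-05). The other NR4A1 probe sets, 211143_x_at and 210226_at, changed by 0.22 and 0.01 log2 without a call (adjusted p = 0.36 and 0.978). NAB1 rose by 1.64, 1.13 and 1.39 log2 on its 3 probe sets, and its differences from the scrambled response lay between -0.32 and 0.07. NAB2 212803_at changed by 0.51 log2 (adjusted p = 0.0588): it read 320 and 346 in shFOXO33_OHT against 172 in shFOXO33_con, and 382 and 399 in shFOXO707_OHT against 356 in shFOXO707_con. The single shFOXO33_con array was the lowest of the 14 for this gene, and after median centring, quantile normalization, the filter on dim probe sets or without shFOXO707_con the change was called. SRF fell by 1.04 log2 on 202401_s_at, with 129 and 159 in shFOXO33_OHT against 303 in shFOXO33_con, and 107 and 92.9 in shFOXO707_OHT against 229 in shFOXO707_con. The dimmer 202400_s_at fell by 0.75 log2 (adjusted p = 0.0413), a call lost without 9 of the 14 arrays and under 4 other alternatives (adjusted p up to 0.266). The difference of 202401_s_at from the scrambled response was -0.07 log2 (95% interval -0.58 to 0.44).

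**Figure D2:**
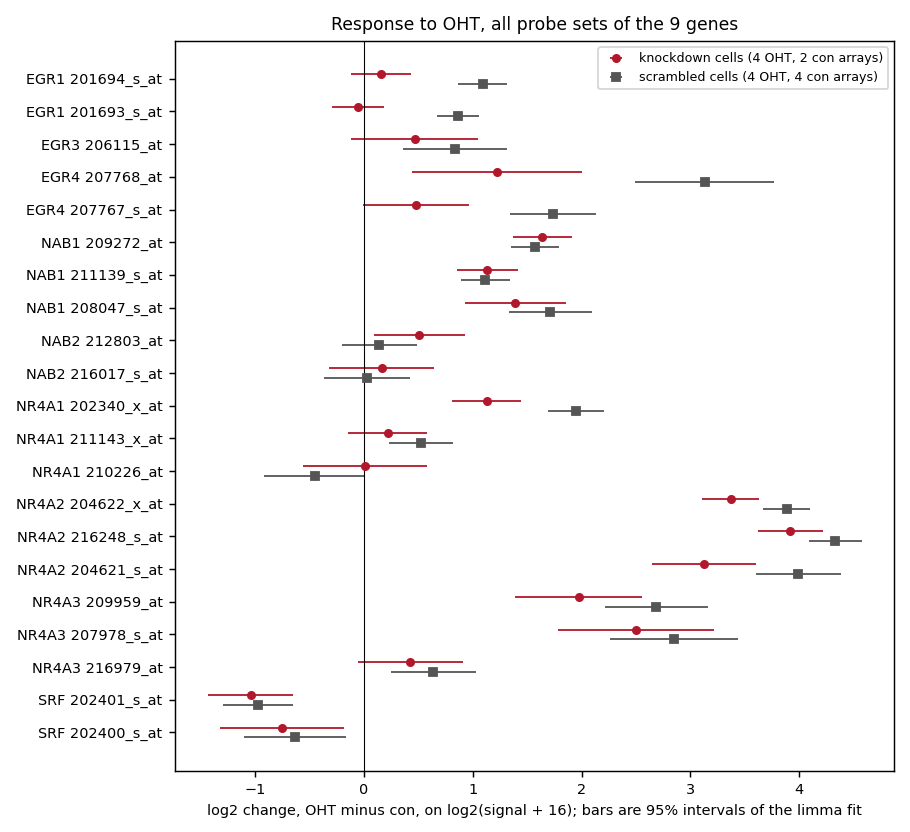
Change with OHT (x axis, log2 of signal + 16, OHT minus con) of each of the 21 probe sets in knockdown cells (red circles, 4 arrays against 2) and in scrambled cells (grey squares, 4 against 4), with 95% intervals of the limma fit. The NR4A2 probe sets lie between 3.12 and 4.33 in both, SRF lies below 0 in both, and EGR1 lies at 0.15 and -0.05 in knockdown cells, against 1.09 and 0.87 in scrambled cells.

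Comparing knockdown with scrambled cells in the presence of OHT, EGR1, EGR4, NR4A1 and NR4A2 were lower by the probe set with the highest mean. None of the 21 probe sets was called higher. Of the 21, 8 fell and 13 were not called (11 had an unadjusted p under 0.05), with a median of -0.40 log2. Across all probe sets 10.1% were called, 6.1% higher and 3.95% lower, with a median of 0.04. This comparison shares its OHT arrays with the responses above, so the results are not independent of each other.

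EGR1 201694_s_at averaged 3941 ± 550 in knockdown cells and 5619 ± 416 in sh-scr_OHT (SD, n = 4 each), a difference of -0.52 ± 0.10 log2 (SE; limma adjusted p = 0.00602). The highest knockdown array, 4629 in shFOXO707_OHT, lay below the lowest scrambled array, 5083. On 201693_s_at the difference was -0.58 log2 (adjusted p = 0.00108), and again the groups did not overlap. EGR4 fell by 1.33 ± 0.30 log2 on 207768_at (SE; limma adjusted p = 0.0105) and by 0.82 log2 on 207767_s_at, where the arrays read 55.8, 46.0, 51.2 and 61.3 in knockdown cells, against 107, 112, 103 and 104 in sh-scr_OHT. The call of 207767_s_at was lost with pseudocount 1 and with hairpin arrays averaged (adjusted p = 0.0524 and 0.0681). EGR3 differed by -0.16 log2 (adjusted p = 0.744) at dim signals.

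NR4A1 202340_x_at read 285 and 287 in shFOXO33_OHT and 212 and 276 in shFOXO707_OHT, against 363 to 456 in sh-scr_OHT, and fell by 0.64 ± 0.12 log2 (SE; limma adjusted p = 0.00373). The other NR4A1 probe sets were not called and their groups overlapped. They differed by -0.13 log2 on 211143_x_at and 0.08 on 210226_at (adjusted p = 0.646 and 0.873). NR4A2 fell by 0.47 and 0.40 log2 on 204622_x_at and 216248_s_at (adjusted p = 0.00781 and 0.0403). The third, 204621_s_at, changed by -0.47 log2 and was not called (adjusted p = 0.132), and the call of 216248_s_at was lost without any 1 of the 4 sh-scr_OHT arrays, either shFOXO707_OHT array or sh-scr_con replicate 2 or 3 (adjusted p up to 0.112), and with shFOXO33 alone as knockdown, pseudocount 1, quantile normalization, no variance trend or averaged hairpins. NR4A3 changed by -0.53 and -0.63 log2 on its brighter probe sets without a call (adjusted p = 0.157 and 0.180). Its groups did not overlap there: 209959_at read 204 to 285 in knockdown cells with OHT and 315 to 382 in sh-scr_OHT.

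NAB1 gave different answers by probe set. The probe set 211139_s_at fell by 0.50 ± 0.11 log2 (SE; limma adjusted p = 0.00822), with 759 and 745 in shFOXO33_OHT and 561 and 548 in shFOXO707_OHT, against 881 to 958 in sh-scr_OHT. The brightest, 209272_at, changed by 0.05 log2 (adjusted p = 0.843) and 208047_s_at by -0.20 (adjusted p = 0.552), both with overlapping groups. SRF 202401_s_at differed by 0.11 log2 (95% interval -0.22 to 0.43) and NAB2 212803_at by -0.12 (95% interval -0.46 to 0.23), neither of them called.

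Each hairpin was then set against sh-scr_OHT in a fit with 6 groups. With shFOXO33, 7 of the 21 probe sets fell and 0 rose, where 25.3% of all probe sets were called, 13.7% higher and 11.6% lower. With shFOXO707, 9 fell and 0 rose, where 20.5% were called, 11.2% higher and 9.28% lower. EGR1 201694_s_at differed by -0.67 log2 with shFOXO33 and by -0.36 with shFOXO707 (limma adjusted p = 5.54e-05 and 0.00958). NR4A1 202340_x_at differed by -0.53 and -0.75 log2 (adjusted p = 0.00961 and 0.000935), and NR4A2 204622_x_at by -0.31 and -0.63 (adjusted p = 0.0106 and 5.72e-05). NR4A3 was not called, with -0.60 and -0.47 log2 on 209959_at (limma adjusted p = 0.133 and 0.273). On 207978_s_at it differed by -0.60 and -0.66 (limma adjusted p = 0.0636 and 0.0511). Of 22 alternatives, 4 and 1 called 209959_at lower, and 6 and 10 called 207978_s_at lower. For NAB1 209272_at and SRF 202401_s_at, whose pooled differences were small, the hairpins went in opposite directions. NAB1 209272_at differed by 0.21 log2 with shFOXO33 and -0.11 with shFOXO707, and SRF 202401_s_at by 0.34 and -0.13, without a call. Between the hairpins they differed by -0.31 and -0.46 log2, also not called (limma adjusted p = 0.0546 and 0.0509). Without shFOXO707_OHT replicate 1, the shFOXO707 calls of EGR1 201694_s_at and EGR4 207768_at were lost (adjusted p = 0.150 and 0.125), and without either shFOXO33_OHT array the shFOXO33 calls of NR4A1 202340_x_at, NR4A2 204622_x_at and EGR4 207767_s_at were lost (adjusted p up to 0.0697, 0.0771 and 0.125).

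The hairpins differed most for EGR4, with a call on 1 of its 2 probe sets. The probe set 207768_at averaged 256 ± 27.0 in shFOXO707_OHT and 85.4 ± 18.6 in shFOXO33_OHT (SD, n = 2 each), 1.43 ± 0.18 log2 apart (SE; limma adjusted p = 2.51e-05). On 207767_s_at the means were 56.2 ± 7.14 and 50.9 ± 6.88, with a difference of 0.11 log2 (adjusted p = 0.854). Of the 21 probe sets, 2 were higher and 3 lower in shFOXO707_OHT than in shFOXO33_OHT, where 22% of all probe sets were called, 11.1% higher and 11% lower. The other calls were EGR1 201694_s_at at 0.31 log2 (adjusted p = 0.0449), NAB1 211139_s_at at -0.43 and 208047_s_at at -0.61, and NR4A2 204622_x_at at -0.32. Those of EGR4 207768_at and NAB1 211139_s_at were kept without any single array; that of EGR1 was lost without 6 arrays (adjusted p up to 0.280), among them both shFOXO33_OHT arrays and shFOXO707_OHT replicate 2, that of NAB1 208047_s_at without any of the 4 knockdown arrays with OHT (up to 0.185), and that of NR4A2 without 3 arrays (up to 0.167). FOXO3 had 810 in shFOXO707_OHT against 307 in shFOXO33_OHT, and the ACTB 3'/5' ratio was also higher in shFOXO707_OHT; the part of either in these differences was not tested.

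**Figure D3:**
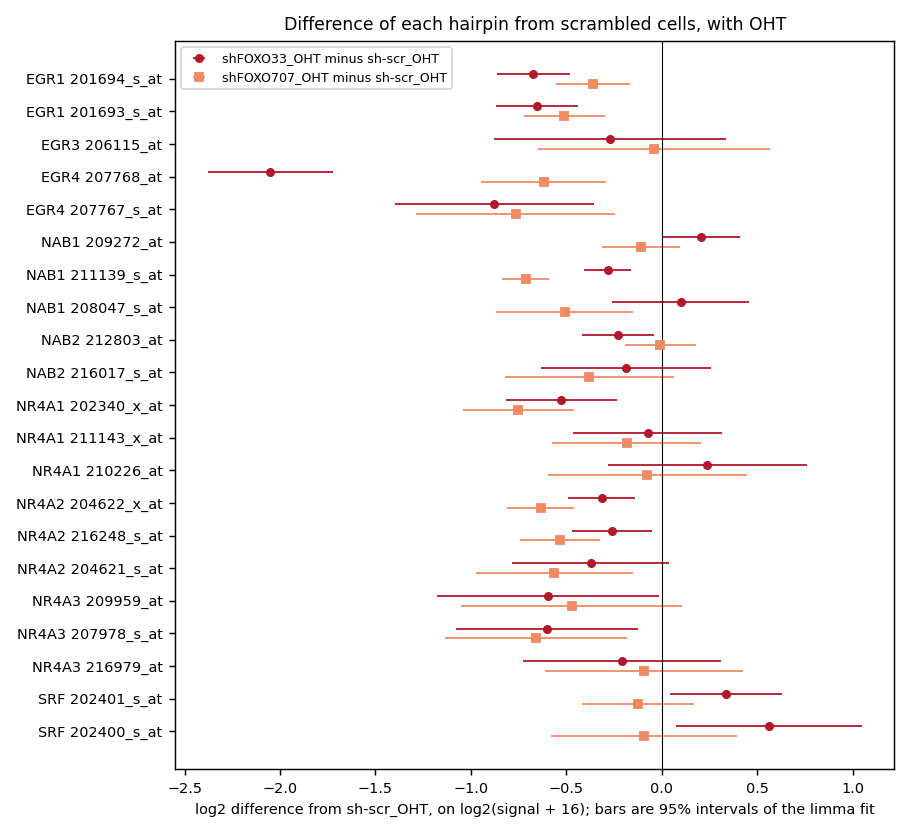
Difference from sh-scr_OHT (x axis, log2 of signal + 16) of shFOXO33_OHT (red circles) and shFOXO707_OHT (orange squares) for each of the 21 probe sets, with 95% intervals of the limma fit (2 arrays against 4). Both hairpins lie left of 0 for EGR1, EGR4, NR4A1 202340_x_at, NR4A2 and NR4A3, and EGR4 207768_at is at -2.05 with shFOXO33 and -0.62 with shFOXO707. The NR4A3 probe sets were not called.

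**Figure D4:**
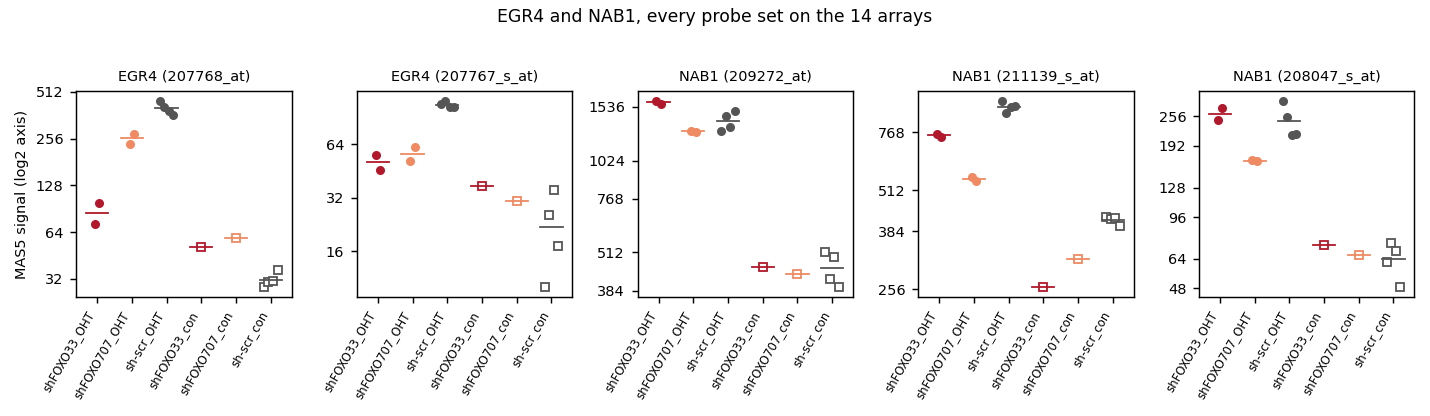
MAS5 signal (log2 axis) of the 2 EGR4 and 3 NAB1 probe sets on the 14 arrays in the 6 groups, with group means as lines, filled circles for arrays with OHT and open squares for arrays without. The hairpins stand apart on EGR4 207768_at (72.2 and 98.5 in shFOXO33_OHT, 237 and 275 in shFOXO707_OHT) and not on 207767_s_at. With OHT, both EGR4 probe sets lie below the scrambled arrays with both hairpins. Among the NAB1 probe sets, only 211139_s_at does so.

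Without OHT, with 1 array per hairpin, knockdown and scrambled cells differed by the test for 1 of the 21 probe sets, which was lower, and 4 had an unadjusted p under 0.05. Across all probe sets 3.16% were called, 1.76% higher and 1.4% lower. The call was NAB1 211139_s_at, at 259 in shFOXO33_con and 316 in shFOXO707_con, against 423, 419, 422 and 399 in sh-scr_con, or -0.51 ± 0.13 log2 (SE; limma adjusted p = 0.0477). It was lost without any 1 of the 8 scrambled arrays or without shFOXO33_con (adjusted p up to 0.270). EGR1 201694_s_at had 3181 in shFOXO33_con and 3886 in shFOXO707_con, both above the 2413 to 3059 of sh-scr_con, and changed by 0.42 log2 without a call (adjusted p = 0.107). NAB2 212803_at had 172 in shFOXO33_con and 356 in shFOXO707_con, against 340 to 372 in sh-scr_con. The hairpins went apart there, at -0.98 and 0.01 log2 from the scrambled mean.

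For EGR1 201694_s_at, the order of the group means over the 6 groups was sh-scr_OHT (5619), shFOXO707_OHT (4369), shFOXO707_con (3886), shFOXO33_OHT (3514), shFOXO33_con (3181) and sh-scr_con (2631). No neighbours in that order overlapped, but the groups without OHT of each FOXO hairpin are single arrays. For NR4A1 202340_x_at the order was sh-scr_OHT (420), shFOXO33_OHT (286), shFOXO707_OHT (244), shFOXO33_con (113), shFOXO707_con (110) and sh-scr_con (97.2), where the lowest shFOXO33_OHT array, at 285, lay just above the highest shFOXO707_OHT array, at 276. The arrays without OHT ran from 79.8 to 113, with both FOXO hairpins above the highest scrambled array of 104. For SRF 202401_s_at it was shFOXO33_con (303), sh-scr_con (232), shFOXO707_con (229), shFOXO33_OHT (144), sh-scr_OHT (111) and shFOXO707_OHT (100). There shFOXO707_con lay within the range of sh-scr_con, and sh-scr_OHT overlapped both hairpins.

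Probe sets of 1 gene agreed to different degrees over the 14 arrays, which share the effect of OHT. Pearson's r of log2 values was 0.991 to 0.998 between the NR4A2 probe sets, 0.942 for EGR1, 0.918 for EGR4 and 0.558 for NAB2. For NR4A1, 202340_x_at and 210226_at correlated at -0.42. Identifiers ending in _x_at mark probe sets with probes that can also match other transcripts. Among 7712 genes above the 40th percentile, the patterns most like EGR1 were those of ATF3 (0.974), a stress-induced factor of the ATF family, HK2 (0.954), a hexokinase, and EFNB3 (0.949), an ephrin ligand. Those most like NR4A1 were CHRD (0.991), which encodes the BMP antagonist chordin, CKB (0.985), the brain-type creatine kinase, and SLC37A1 (0.982). The nearest to SRF were SLC25A46 (0.982), CHMP7 (0.981) and TNFAIP1 (0.980). Each r is over the 14 arrays and describes them only.

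Other genes of the same pathways did not share 1 direction. Their counts read against all probe sets, of which 16.2% rose and 29.2% fell with OHT in scrambled cells, and 6.1% were higher and 3.95% lower in knockdown cells with OHT; the medians over all were -0.14 and 0.04 log2. Most list genes lay above the 40th percentile of mean signal, where calls were more common. Of the 12808 probe sets above it, fitted alone, 3139 rose and 5581 fell with OHT in scrambled cells. In knockdown cells with OHT, 1604 of them were higher and 1006 lower. Of 29 other immediate early genes, 13 rose and 14 fell with OHT in scrambled cells, with a median of -0.30 log2. Those with the smallest adjusted p were TRIB1 (1.89), a pseudokinase, KLF6 (-3.18) and KLF10 (1.95), zinc finger factors, and IER3 (-1.71). In knockdown cells with OHT, 1 was higher and 6 lower than in sh-scr_OHT, among them PHLDA1 (-0.42), the phosphatase DUSP1 (-0.50), IER5 (-0.32) and IER3 (-0.33), with a median of -0.30. The lower count was 2 without sh-scr_OHT replicate 1 and 3 without shFOXO707_OHT replicate 1.

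Of 7 SRF cofactors, 0 rose and 6 fell with OHT in scrambled cells, where 29.2% of all probe sets fell, with a median of -1.15 log2, including the actin-regulated coactivators MRTFA (-1.49) and MRTFB (-1.17), the LIM protein FHL2 (-2.88) and the ternary complex factor ELK4 (-0.87). Of 16 actin and muscle type SRF targets, 0 rose and 11 fell, with a median of -0.47, among them TGFB1I1 (-1.74), ZYX (-1.42), CNN1 (-0.76) and CALD1 (-0.66). After median centring, 6 cofactors still fell, while of the targets 2 rose and 6 fell. In knockdown cells with OHT, MRTFB was higher than in sh-scr_OHT (0.71) and no cofactor was lower, while 4 targets were higher, including ACTN1 (0.69) and TGFB1I1 (0.75), and 2 lower, MYH9 (-0.88) and ACTA2 (-0.56). Without sh-scr_OHT replicate 4 or shFOXO33_OHT replicate 2 these counts were 2 higher and 1 lower, and without sh-scr_OHT replicate 1 or shFOXO33_OHT replicate 1 the lower count was 1. The hairpins differed on these targets. With shFOXO33, 9 were higher and 4 lower, with a median of 0.30 log2 (13.7% and 11.6% of all probe sets). With shFOXO707, 5 were higher and 6 lower, with a median of -0.02 (11.2% and 9.28% of all probe sets).

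Of 16 genes described as EGR1 targets, 3 rose and 7 fell with OHT in scrambled cells, with a median of -0.14 log2 that equals that of all probe sets. After median centring 6 rose and 5 fell. VEGFA (0.84) and PDGFB (1.42) rose, and PLAU (-1.72) and CD44 (-0.61) fell. In knockdown cells with OHT, where EGR1 was lower than in sh-scr_OHT, 3 of them were higher, TGFB1 (0.46), F3 (0.48) and CD44 (0.33), and 1 lower, CCND1 (-1.02). Of 10 CREB factors, coactivators and targets, 4 rose and 3 fell with OHT in scrambled cells (16.2% and 29.2% of all probe sets), with a median of -0.02 log2, and NFIL3 (1.40), SIK1 (1.63), CRTC3 (0.74) and CREBBP (0.52) had the smallest adjusted p. In knockdown cells with OHT, 3 were higher and 0 lower (6.1% and 3.95% of all probe sets), with a median of 0.18. Of the RXR receptors, the partners of NR4A1 and NR4A2, RXRA rose (1.41) and RXRB fell (-0.81) with OHT in scrambled cells, with a median of 0.30 over the 3, and 0 of 3 were called with knockdown (1 without shFOXO33_con, shFOXO707_con or shFOXO707_OHT replicate 1, and 2 after the filter). Of 9 ERK pathway kinases, 5 rose and 1 fell with OHT in scrambled cells, with a median of 0.30 log2, among them RPS6KA3 (1.23), RPS6KA1 (0.90) and MAP2K1 (0.66), and in knockdown cells with OHT 0 were higher and 2 lower, RPS6KA1 (-0.51) and MAP2K1 (-0.31), with a median of -0.20. That lower count was 1 without sh-scr_OHT replicate 1 or either shFOXO33_OHT array.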

How the data were processed

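Total RNA of 14 samples was measured on 1 Affymetrix array each. The authors deposited linear intensities that MAS5 produced, per the submitters' processing notes; no version of it was found there, and no detection calls were used. The mean without the lowest and highest 2% was equal on all arrays. The array annotation paired 19064 of 22215 probe sets with 1 gene, 1043 with several and 2108 with none, and symbols were updated with a RefSeq table (GRCh38.p14). Intensities were transformed as log2(signal + 16), which understates the change of dim genes. limma 3.58.1 in R 4.3.3 (lmFit, eBayes with a variance trend) was fitted to all 22215 probe sets and 14 arrays in 4 groups with hairpins pooled, and in 6 groups for single hairpins; all tests are two-sided. Pooling counts arrays of 1 hairpin as separate replicates. No filter was applied; 16 of the 21 probe sets lay above the 40th percentile of mean signal (79.1) and 5 below. Genes in lists were represented by the probe set with the highest mean, and up to 4 per list with the smallest adjusted p were named. The genes described and the lists were chosen with earlier results of these data known. Precision is limited by the number of arrays. Only the comparison of OHT in scrambled cells was tested on simulated data, and the other comparisons were not. Alternatives were 2 pseudocounts, a filter, 2 scalings, no variance trend, averaged hairpins, 1 hairpin alone, the scrambled or OHT arrays alone, a replicate block and leaving out each array.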

Additional observations from a re-analysis of the deposited data

Results flagged for a closer look

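The response of EGR1 to OHT differed between knockdown and scrambled cells by -0.94 log2 on 201694_s_at and -0.92 log2 on 201693_s_at, by the test of the difference itself. Both calls were near the threshold (limma adjusted p = 0.0489 and 0.0344), and were lost without 12 and 10 of the 14 arrays, and with no variance trend or averaged hairpins. Between the hairpins with OHT (shFOXO707_OHT minus shFOXO33_OHT), the tested differences were 0.31 log2 for EGR1 201694_s_at, 1.43 for EGR4 207768_at, -0.43 for NAB1 211139_s_at, -0.61 for NAB1 208047_s_at and -0.32 for NR4A2 204622_x_at.

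In 3 of 42 groups of 4 scrambled arrays, 1 array stood far from the other 3: the gap to its nearest neighbour, as a share of the group's range, passed Dixon's 95% critical value for 4 samples. These were SRF 202400_s_at in sh-scr_OHT (0.959, replicate 2 low at 27.0), NR4A1 202340_x_at in sh-scr_con (0.893, replicate 4 low at 79.8) and NAB1 211139_s_at in sh-scr_con (0.834, replicate 4 low at 399). Chance alone passes that value in about 1 of 20 groups.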

How the results depend on the processing

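Of 62 single calls among the probe sets, 38 were kept under every alternative run and 24 were lost under at least 1; none of 1365 alternative values turned direction, and 127 lost the call. The cause of these shifts was not tested. For OHT in scrambled cells the lower count of 2 was 1 with the filter, median centring or quantile normalization. For OHT in knockdown cells it was 1 under these 3 settings, with pseudocount 1 and with hairpin arrays averaged. The 8 lower probe sets of knockdown with OHT became 0 with the replicate block over the 8 OHT arrays, as did all counts of the gene lists in that comparison; over all 22215 probe sets the block left 6 higher and 2 lower, against 1356 and 877. The other comparisons kept their counts within 1.5 times under the block except the lower count of the hairpin difference, which was 5. Replicate numbers did not pair the arrays (correlation of same-numbered deviations -0.059 to 0.066). No paired analysis was possible because the hairpin arrays without OHT carry no numbers, for the comparisons that use them. Without OHT the lower count was 0 with pseudocount 64 or no variance trend. The interaction count was 1 with pseudocount 64, median centring or quantile normalization, and 0 with no variance trend or averaged hairpins. For shFOXO33 the higher count was 1 with the filter or with the 8 OHT arrays alone, and the lower count 11 with pseudocount 64 or those arrays alone. The hairpin difference had 1 higher with no variance trend, and 5 lower with pseudocount 64, the filter or the 8 OHT arrays alone. Leaving out each array in turn, the lower counts ranged from 1 to 2 (OHT, scrambled and knockdown cells), 7 to 9 (knockdown with OHT), 0 to 2 (knockdown without OHT and interaction), 4 to 10 (shFOXO33), 5 to 11 (shFOXO707) and 1 to 5 (hairpin difference). The higher counts ranged from 9 to 10 (OHT in knockdown cells), 0 to 1 (shFOXO33) and 1 to 2 (hairpin difference). The 5 dim probe sets carry little signal.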
